A study of Homo sapiens with 3 samples.

Results

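The Fanconi anemia (FA) genes encode the proteins that detect and unhook crosslinks between the strands of DNA, and 10 of them, taken by their names FANCA, FANCB, FANCC, FANCD2, FANCE, FANCF, FANCG, FANCI, FANCL and FANCM, were followed in HepG2 cells exposed to etoposide. These 10 genes were all of the listed members and were found among 27274 gene names on the array, where they were represented by 16 probes. HepG2 is a human hepatocarcinoma line that expresses wild-type p53, and etoposide is an anticancer drug that traps topoisomerase II on DNA and leaves breaks. The arrays held RNA of control HepG2 cells at 0 μM, which the labels call untreated and the study sets down as DMSO, the solvent, of cells given 10 μM etoposide (low dose) and of cells given 100 μM etoposide (high dose), each taken at 30 h. Each condition was measured on 1 array, and all 3 arrays shared 1 slide, so the values below describe these 3 RNA samples, no test between conditions was possible, and neither the spread between cultures nor a slide effect can be estimated.

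In the FA pathway, most members are subunits of a core complex that works as a ubiquitin ligase. FANCL carries the ligase activity, FANCB stands beside it, FANCA and FANCG form another module, FANCC, FANCE and FANCF form the module that recruits the substrate, and FANCM anchors the complex on DNA. The substrates are FANCD2 and FANCI, which pair as a clamp and receive ubiquitin. The modified clamp then directs nucleases and the recombination machinery to the lesion. The pathway acts mainly during DNA replication, and transcripts of many of its members are known to vary over the cell cycle. Inherited loss of any of these core members or of FANCD2 or FANCI has been linked to the disease Fanconi anemia, apart from FANCM, whose place among the disease genes has been questioned.

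Signals are the scanner's processed intensities, in arbitrary units, and cannot be compared between probes. A fold change was computed after each array was set to its 75th percentile, which lay at a signal of 514 in the control, 536 at 10 μM and 432 at 100 μM. The brightest probe stands for a gene unless another one is named. Where a signal was not well above background, it was raised to the lowest signal that was, and the fold change is then a bound. The error given with a log2 ratio combines the standard deviations (SD) between repeated spots of like brightness on each of the arrays compared. This spot SD of the ratio had a median over the members of 0.07 to 0.08. It covers only the spread between spots of the same array, and not the spread between arrays or between cultures. A difference counts as called here when it exceeds 2-fold. The RNA came from whole cultures, so fewer cells with a transcript and less of it per cell cannot be told apart.

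FANCD2 and FANCI, the substrates of the pathway, showed the largest differences between the doses of all members. By their brightest probes both were higher at 10 μM than in the control and far lower at 100 μM. The 60-base probes that gave these values are shown here because the finding rests on them. They lie in FANCD2 (NM_001018115, from base 2598 of the transcript, chromosome 3 of hg18 from 10089581 to 10089640) and in FANCI (NM_018193, from base 3741, chromosome 15 of hg18 from 87659532 to 87659591), both on the plus strand.
FANCD2: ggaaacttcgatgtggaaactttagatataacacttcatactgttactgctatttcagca
FANCI: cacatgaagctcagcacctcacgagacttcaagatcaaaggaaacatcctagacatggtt

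The FANCI signal was 1074 in the control, 1940 at 10 μM and 176 at 100 μM. The 10 μM sample was thus the highest and the 100 μM sample the lowest of the 3. In fold terms, FANCI was 1.73-fold higher at 10 μM than in the control (log2 ratio 0.79 ± 0.07, spot SD) and 5.15-fold lower at 100 μM than in the control (-2.36 ± 0.09). Between the doses it differed 8.91-fold (3.16 ± 0.08), and 29 of 16686 genes tested (0.174%) had a larger ratio of 10 μM to 100 μM.

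The FANCD2 signal was 467 in the control, 794 at 10 μM and 85.9 at 100 μM, in the same order as FANCI. It was 1.63-fold higher at 10 μM than in the control (0.70 ± 0.07), 4.58-fold lower at 100 μM (-2.19 ± 0.11), and 7.45-fold higher at 10 μM than at 100 μM (2.90 ± 0.11). The ratios of FANCD2 and FANCI between the doses were within 1.89 spot SDs of each other, so their order was not resolved. A second FANCD2 probe, further along NM_001018115 (base 4493), gave 154, 202 and 22.0. Its high-dose signal was not well above background, so it gave at least 7.41-fold between the doses and 1.26-fold for the low dose over control.

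The third FANCD2 probe targets another transcript, NM_033084 (from base 4786), and it behaved differently. Its signal was 72.6 in the control but was too close to background in both treated samples (16.1 at 10 μM and 4.55 at 100 μM). It was therefore at least 3.35-fold lower at 10 μM and at least 2.82-fold lower at 100 μM than in control, while the other FANCD2 probes were higher at 10 μM than in the control. FANCD2 also has pseudogene copies of similar sequence, and whether their RNA adds to any of these probes was not tested. With the mean of all 3 probes the log2 ratio of FANCD2 at 10 μM was -0.40, so its direction there depends on the probes used. That mean took the third probe's signal near background as it stood, without raising it, so its size is uncertain.

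**Figure D1:**
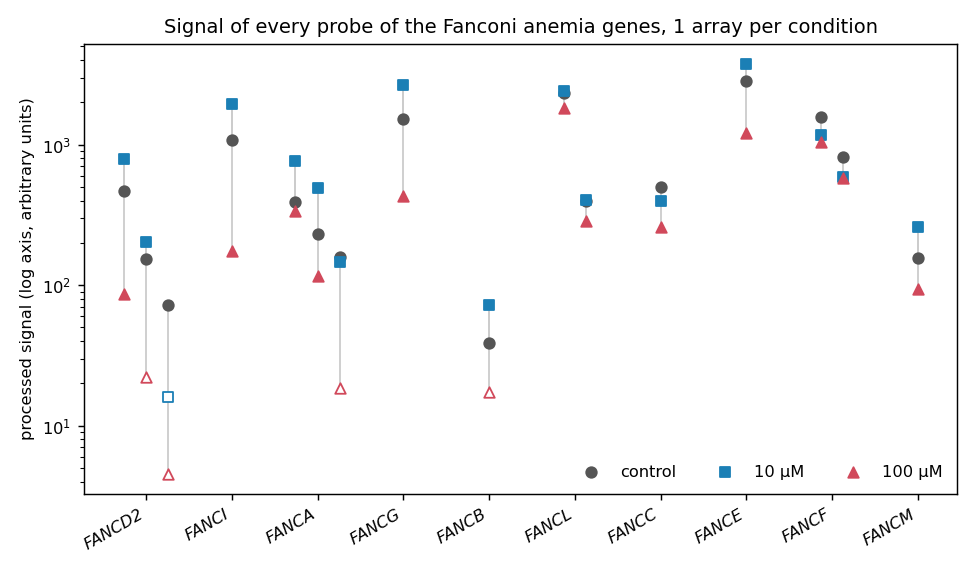
Processed signal (log axis, arbitrary units) of all 16 probes of the 10 FA genes on the control (grey circles), 10 μM (blue squares) and 100 μM (red triangles) arrays, 1 array each and unscaled, with the brightest probe of a gene on the left and open symbols for signals not well above background. The red triangle lies lowest for each probe, from slightly below the others in FANCL and FANCF to far below in FANCI and FANCD2, and heights of different probes are not comparable.

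In the module of FANCA and FANCG, FANCG followed the substrates. Its signal (NM_004629, chromosome 9 of hg18 from 35063935 to 35063994) was 1529 in the control, 2660 at 10 μM and 428 at 100 μM, again highest at 10 μM and lowest at 100 μM. FANCG was 1.67-fold higher at 10 μM than in the control (0.74 ± 0.06), 3.0-fold lower at 100 μM (-1.59 ± 0.07) and 5.00-fold higher at 10 μM than at 100 μM (2.32 ± 0.07). Its ratio between the doses stood apart from its neighbours in the order, 4.52 spot SDs below FANCD2 and 10.98 above FANCE.

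FANCA, the other subunit of the module, was measured by 3 probes that gave unlike values at 100 μM. The brightest, assigned by the array to the short transcript NM_001018112 (base 503), read 393 in the control, 764 at 10 μM and 335 at 100 μM. By it FANCA was 1.86-fold higher at 10 μM than in the control (0.90 ± 0.07), the highest of the 10 members, and at the control level at 100 μM (1.01-fold, 0.02 ± 0.08).

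The FANCA probe for the full-length transcript NM_000135 (base 5346, chromosome 16 of hg18 from 88331514 to 88331573) is spotted 10 times on every array and so shows the spread between spots directly. Its spots ran from 206 to 270 with a median of 232 in the control, from 463 to 523 with a median of 490 at 10 μM, and from 107.3 to 128.5 with a median of 117 at 100 μM, after 1 outlier spot was left out on each treated array. The spots of the 3 arrays did not overlap, although spots of 1 array share its RNA and are no replicates of a condition. This probe gave 2.01-fold over control at 10 μM, 1.67-fold below control at 100 μM and 3.37-fold between the doses. The third probe (NM_001018112, base 1599) gave 157, 147 and 18.6, the last not well above background, and was 1.12-fold lower at 10 μM than in the control and at least 6.12-fold lower at 100 μM. FANCA was thus higher at 10 μM than in the control by 2 of its 3 probes and lower at 100 μM by 2 of them.

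**Figure D2:**
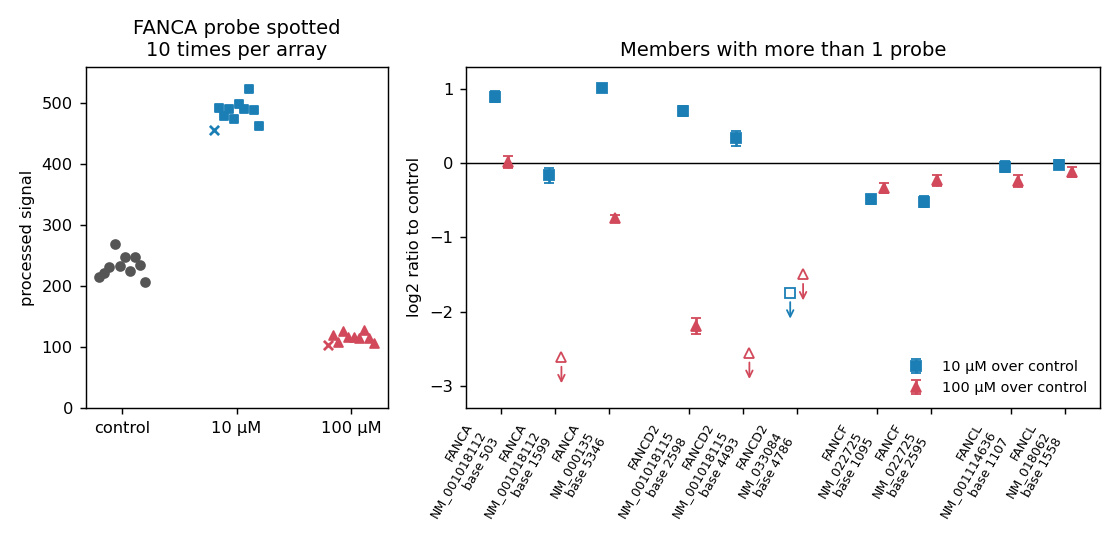
Left, processed signal of each of the 10 spots of the FANCA probe for NM_000135 on each array, with crosses for outlier spots left out; right, log2 ratio to control at 10 μM (blue squares) and 100 μM (red triangles) for each probe of the 4 members with more than 1 probe, with bars of 1 spot SD and open symbols with arrows for bounds. The spots of the arrays do not overlap, the probes of FANCF and of FANCL lie close together, and those of FANCA and FANCD2 do not.

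In the ligase module, FANCB, with signals close to background, followed FANCG in direction while FANCL, the ligase subunit, hardly differed between samples. FANCB (NM_001018113, chromosome X of hg18 from 14771958 to 14772017) read 38.9 in the control, 72.6 at 10 μM and 17.4, not well above background, at 100 μM. It was 1.79-fold higher at 10 μM than in the control (0.84 ± 0.23), at least 1.51-fold lower at 100 μM, and 2.71-fold or more apart between the doses. With a higher floor, at the 5th percentile of signals well above background, its log2 ratio was -0.03 at 100 μM and 0.87 between the doses, and with another background correction (normexp) 0.41 between the doses, so that its call over 2-fold was lost in both. At this brightness the error was over 3 times as large as the median over the members. FANCL read 2325, 2387 and 1807 by its brightest probe (NM_018062), which is 1.02-fold lower at 10 μM than in the control (-0.02 ± 0.06) and 1.08-fold lower at 100 μM (-0.11 ± 0.07). A second FANCL probe (NM_001114636) read 399, 402 and 285, or 1.03-fold and 1.18-fold lower than control. Under the 7 ways of scaling the arrays, the log2 ratio of FANCL at 10 μM ran from -0.05 to 0.04, so that its direction is not defined.

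The substrate-recruiting module was split as well. FANCE (NM_021922, chromosome 6 of hg18 from 35542743 to 35542802) read 2850 in the control, 3718 at 10 μM and 1215 at 100 μM. It was 1.25-fold higher at 10 μM than in the control (0.32 ± 0.06), 1.97-fold lower at 100 μM (-0.98 ± 0.07), just short of 2-fold, and 2.47-fold higher at 10 μM than at 100 μM.

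FANCC and FANCF, its partners in the module, were below control at both doses. FANCC (NM_000136, chromosome 9 of hg18 from 96901343 to 96901402) read 496, 396 and 258, which is 1.31-fold lower at 10 μM (-0.39 ± 0.07) and 1.62-fold lower at 100 μM (-0.69 ± 0.08). FANCF (NM_022725, chromosome 11 of hg18 from 22602809 to 22602868) read 1566, 1168 and 1049, which is 1.40-fold lower at 10 μM (-0.48 ± 0.06) and 1.26-fold lower at 100 μM (-0.33 ± 0.07). The second FANCF probe, 811, 592 and 582, was 1.43-fold and 1.17-fold lower. FANCF was the only member with a higher scaled value at 100 μM than at 10 μM, at a log2 ratio of 10 μM to 100 μM of -0.16 that ran from -0.22 to 0.16 under the 7 scalings and so changed sign.

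FANCM, the anchor of the core complex, resembled the genes that were highest at 10 μM. Its probe (NM_020937, chromosome 14 of hg18 from 44738960 to 44739019) read 155, 257 and 93.2. FANCM was 1.59-fold higher at 10 μM than in the control (0.67 ± 0.10), 1.40-fold lower at 100 μM (-0.49 ± 0.12) and 2.22-fold higher at 10 μM than at 100 μM (1.15 ± 0.11), a call that was lost with normexp (0.69).

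**Figure D3:**
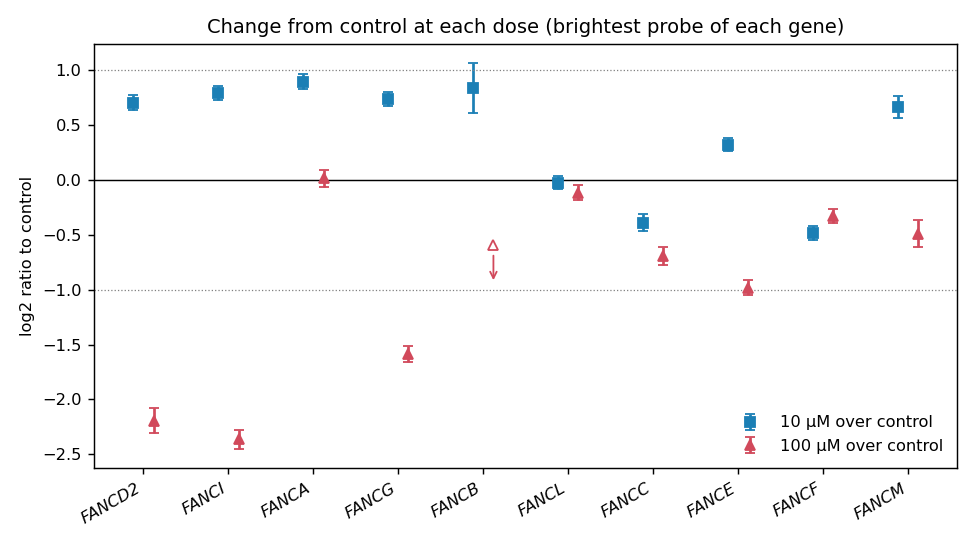
Log2 ratio to control of each FA gene by its brightest probe at 10 μM (blue squares) and 100 μM (red triangles), ordered by module (FANCD2 and FANCI; FANCA and FANCG; FANCB and FANCL; FANCC, FANCE and FANCF; FANCM), with bars of 1 spot SD, dotted lines at 2-fold and an open symbol with an arrow for a bound. FANCD2, FANCI and FANCG lie below the lower line at 100 μM and no member lies above the upper line, while FANCL stays near 0 at both doses.

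Counted over the members, the low dose gave 0 of 10 genes over 2-fold higher and 0 over 2-fold lower than control, where 3.39% of 16659 genes tested were over 2-fold higher and 1.58% were lower. Below that threshold, 7 of the 10 members were higher than control by more than 2 spot SDs (FANCA, FANCB, FANCD2, FANCE, FANCG, FANCI and FANCM), FANCC and FANCF were lower, and FANCL was within them. Of 15449 genes measured on both arrays, 26.4% were higher and 32.1% lower by that margin. The median log2 ratio over the members was 0.68, against -0.04 over all genes tested. No neighbours in the order of the 6 members from FANCA (0.90) to FANCM (0.67) differed by more than 2 spot SDs, and each of the 6 exceeded at least 92.5% of the genes tested.

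At the high dose, 3 of 10 members (FANCI, FANCD2 and FANCG) were over 2-fold lower than control and 0 were over 2-fold higher, where 3.68% of 16772 genes tested were lower and 6.83% were higher. The median of the members was -0.64, against 0.10 over all genes tested, and 9 of 10 lay below 0, as did 42.4% of all genes. FANCA was the exception by its brightest probe, and its log2 ratio ran from -0.27 to 0.08 under the 7 scalings. Of the 9 members measured on both arrays, 7 were below control by more than 2 spot SDs, as were 29.5% of 15466 genes.

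Between the doses, 6 of 10 members (FANCI, FANCD2, FANCG, FANCB, FANCE and FANCM) were over 2-fold higher at 10 μM and 0 were over 2-fold lower, where 3.66% of 16686 genes tested were higher and 3.96% were lower. The median of the members was 1.23, against -0.11 over all genes tested. Each comparison uses an array that another one uses too, so the 3 sets of values are not independent of one another. The substrates and the core subunits differed in size, with a median log2 ratio of 10 μM to 100 μM of 3.03 for FANCD2 and FANCI and of 1.02 for the 8 core members, of which 4 were over 2-fold.

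**Figure D4:**
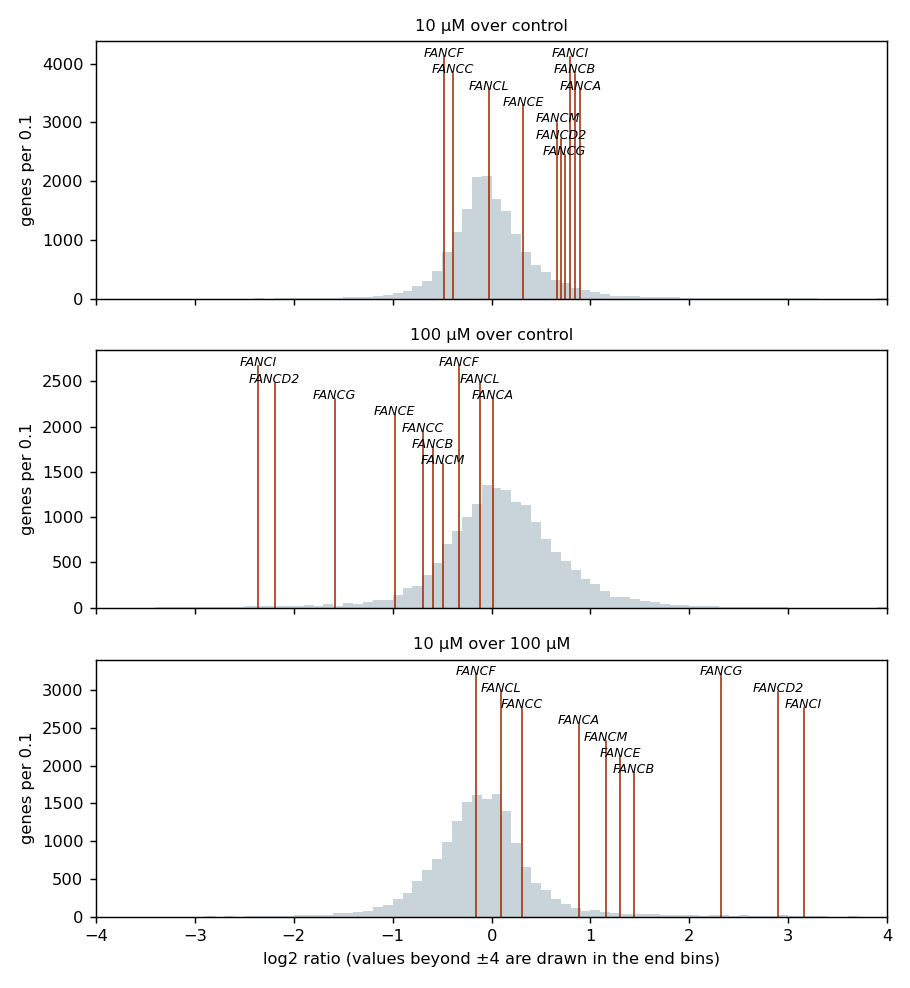
Histograms of the log2 ratio of all genes tested (grey, genes per 0.1 log2) for 10 μM over control, 100 μM over control and 10 μM over 100 μM, with a red line at each FA gene, whose height carries no value. FANCI and FANCD2 stand in the far lower tail at 100 μM and in the far upper tail between the doses, FANCL and FANCF lie within the bulk between the doses, and FANCB has bounds in the lower panels.

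Genes of the cell cycle differed alongside the FA genes, and their part in these values was not tested. Over all genes tested, 3.39% were over 2-fold higher and 1.58% lower than control at 10 μM. At 100 μM these shares were 6.83% and 3.68%, and 3.66% were over 2-fold higher at 10 μM than at 100 μM. Of 18 S-phase genes, 5 were over 2-fold higher at 10 μM than in the control (all 18 ran from 1.09-fold for MCM6 to 4.17-fold for PCNA), 13 were over 2-fold lower at 100 μM, with a median log2 ratio of -1.68, and 17 were over 2-fold higher at 10 μM than at 100 μM (median 2.09). Of 18 mitotic genes, 0 passed 2-fold at 10 μM, where their median was -0.13. At 100 μM 18 were over 2-fold lower than control (median -2.76). All 18 were over 2-fold higher at 10 μM than at 100 μM (median 2.76). Of 18 p53 target genes, 14 were over 2-fold higher at 10 μM and 11 at 100 μM, and CDKN1A, which encodes the cell cycle inhibitor p21, was 7.94-fold and 7.07-fold higher. All 11 liver genes checked, among them ALB and AFP, were well above background on every array. Of 6 markers of other tissues on the array, 3 were not well above background on any array, the fibroblast genes COL1A1, COL3A1 and DCN, and 3 were on every array, the blood cell genes PTPRC (257, 131 and 288) and CD3E and the neuronal gene SYT1. The summed signal of the 6 was 384 in the control, 266 at 10 μM and 425 at 100 μM, and its part in the values of the FA genes was not tested.

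A list of 31 other genes of the pathway was taken next, of which 30 could be tested and 1, FAAP24, was not well above background. At 10 μM, 6 of 30 were over 2-fold higher than control and 0 lower, against 3.39% and 1.58% of all genes tested. At 100 μM 0 were higher and 11 lower, against 6.83% and 3.68%. Between the doses, 14 were over 2-fold higher at 10 μM than at 100 μM, against 3.66%. Their median log2 ratios were 0.30, -0.58 and 0.64 for these comparisons, against -0.04, 0.10 and -0.11 over all genes tested.

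UBE2T, the ubiquitin-conjugating enzyme that works with FANCL, followed the substrates rather than FANCL. Its signal was 2746 in the control, 5855 at 10 μM and 797 at 100 μM, which is 2.04-fold higher than control, 2.90-fold lower than control and 5.92-fold between the doses. The enzyme that removes ubiquitin from FANCD2, USP1, read 1204, 1452 and 384, or 1.16-fold higher at 10 μM and 2.63-fold lower at 100 μM. Its activating partner WDR48 read 997, 831 and 713 and was 1.25-fold and 1.18-fold lower, the lowest of the 30 at 10 μM.

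The small partners of the core complex differed little from control, apart from CENPS at 100 μM. FAAP100, which joins FANCB and FANCL, read 926, 965 and 752 and was 1.002-fold and 1.04-fold lower than control. FAAP20, which joins FANCA and FANCG, read 1540, 1637 and 1355 and was 1.02-fold and 1.05-fold higher. CENPX, a partner of FANCM, was 1.06-fold and 1.16-fold higher, and CENPS, with which it pairs, was 1.13-fold and 1.51-fold lower. None of these 4 passed 2-fold in any comparison. Each module of the core complex held a member that was over 2-fold between the doses beside genes that were not. For the modules of FANCB and FANCM, this rests on calls that were lost with normexp.

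Genes that act after the clamp is modified include those of recombination. Of 8 of them, 2 were over 2-fold higher at 10 μM than in the control, against 3.39% of all genes tested. At 100 μM, 5 were over 2-fold lower than in the control, against 3.68%. Between the doses, 7 were over 2-fold higher at 10 μM than at 100 μM, against 3.66%, with a median log2 ratio of 2.12. For 2 of the 8 the high-dose signal was not well above background, so their values at 100 μM and between the doses are bounds. The median between the doses is therefore a lower bound. BRCA1, which acts in recombination repair, read 583, 1273 and 133, which is 2.09-fold higher than control at 10 μM, 3.69-fold lower at 100 μM and 7.72-fold between the doses. BLM, a helicase that unwinds recombination intermediates, had the largest ratio of the 30 between the doses, 9.38-fold, with signals of 470, 1065 and 91.5. Of the 4 genes of its complex, which dissolves such intermediates, 2 were over 2-fold higher at 10 μM than in the control. At 100 μM 2 were over 2-fold lower, and 3 were over 2-fold apart between the doses, beside the same shares of all genes.

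Over 2-fold, 3.39% of all genes tested were higher at 10 μM and 3.68% lower at 100 μM than control. Of 7 nuclease genes, 1 passed 2-fold. It was EME1, a subunit of a structure-specific nuclease, which read 273, 634 and 110 and was 2.22-fold higher at 10 μM than in the control and 2.08-fold lower at 100 μM. FAN1, a nuclease recruited by modified FANCD2, was 1.26-fold and 1.13-fold higher than control, and the nuclease scaffold SLX4 was 1.05-fold lower and 1.09-fold higher. ERCC1, a subunit of the nuclease that cuts beside the crosslink, was 1.34-fold higher at 10 μM and 1.56-fold higher at 100 μM, the highest of the 30 there.

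**Figure D5:**
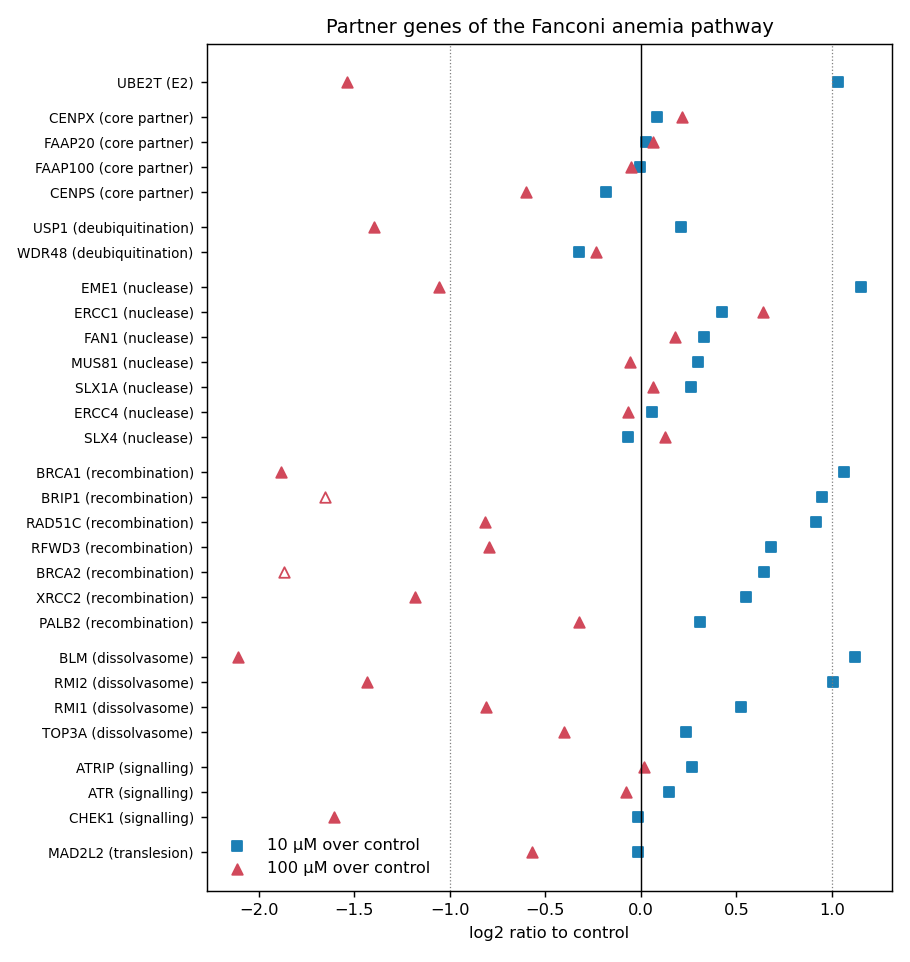
Log2 ratio to control at 10 μM (blue squares) and 100 μM (red triangles) of other genes of the pathway, grouped by role and ordered within a role by the low dose, with dotted lines at 2-fold and open symbols for bounds. UBE2T and most recombination genes have blue squares to the right and red triangles to the left of 0, whereas most core partners and nucleases have both symbols near 0.

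Promoter sequences were compared because members with unlike responses sit in the same complex. RefSeq promoters on GRCh38.p14, from 250 bases before to 50 bases after the start, were found for 9 of 10 members, with 2 windows for FANCC and none for FANCI. The E2F motif (TTTCCCGC, TTTGGCGC, TTTCGCGC or TTTGCCGC on either strand) was found in windows of 3 genes, FANCA, FANCC and FANCD2, and is held by 4.1% of 22197 promoters of coding genes, to which the other shares refer as well. Of the 5 members over 2-fold between the doses that have a window, 1 held it (FANCD2), and of the other 4, 2 held it (FANCA and FANCC). With FANCA by either of its other probes, which were over 2-fold between the doses, the tally was 2 of 6 against 1 of 3. The cell cycle homology region (CHR, TTTGAA or TTCGAA) was found in 1 gene, FANCC, against 13.7% of promoters. CCAAT was found in FANCA, FANCF and FANCM, against 34.7%, and the GC box (GGGCGG) in 7 genes, against 56.3%. The p53 decamer motif was found in 0 members, against 6.21% of promoters. No match overlapped a match of another motif. A match describes letters in the window and says nothing of binding. Only exact matches were counted, so a window without one may still hold a variant of the motif.

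The windows of FANCD2, FANCA and FANCC with an E2F match are shown to place the match. That of FANCG is shown as the window of a gene that differed 5.00-fold between the doses and held no exact match. Capitals mark E2F and CHR matches, which read as the reverse complement of the motif where they lie on the other strand, and a position is that of the first base of the match relative to the start. They lie at chr3:10026187-10026486 on the plus strand (FANCD2, match from base -2), chr16:89816598-89816897 on the minus strand (FANCA, from base -172), chr9:95317660-95317959 on the minus strand (FANCC, from bases -172 and -46, and CHR from -248) and chr9:35079893-35080192 on the minus strand (FANCG).
FANCD2: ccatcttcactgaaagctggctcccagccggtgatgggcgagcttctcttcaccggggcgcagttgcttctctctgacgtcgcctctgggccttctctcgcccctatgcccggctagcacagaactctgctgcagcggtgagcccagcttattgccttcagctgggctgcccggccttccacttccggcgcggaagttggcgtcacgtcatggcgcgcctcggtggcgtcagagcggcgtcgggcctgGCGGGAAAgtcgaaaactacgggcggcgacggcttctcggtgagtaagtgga
FANCA: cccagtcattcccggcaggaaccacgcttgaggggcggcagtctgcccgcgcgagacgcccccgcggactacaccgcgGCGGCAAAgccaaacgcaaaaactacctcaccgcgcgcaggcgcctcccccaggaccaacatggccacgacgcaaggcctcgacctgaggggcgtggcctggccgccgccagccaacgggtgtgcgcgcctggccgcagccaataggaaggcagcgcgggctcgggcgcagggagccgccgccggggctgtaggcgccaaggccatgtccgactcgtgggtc
FANCC: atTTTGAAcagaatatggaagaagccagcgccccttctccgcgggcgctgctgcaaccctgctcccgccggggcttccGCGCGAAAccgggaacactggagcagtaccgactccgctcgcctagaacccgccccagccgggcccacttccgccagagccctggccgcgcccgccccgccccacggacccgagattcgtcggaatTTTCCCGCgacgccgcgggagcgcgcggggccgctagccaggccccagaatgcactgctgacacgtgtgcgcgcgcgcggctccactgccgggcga
FANCG: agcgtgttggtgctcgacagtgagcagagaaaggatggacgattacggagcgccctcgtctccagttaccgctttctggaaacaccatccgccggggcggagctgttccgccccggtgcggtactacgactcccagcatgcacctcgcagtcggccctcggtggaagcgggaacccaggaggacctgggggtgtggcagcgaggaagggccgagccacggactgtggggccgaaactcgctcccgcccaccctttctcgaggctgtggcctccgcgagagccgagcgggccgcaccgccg

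The FANCD2 match GCGGGAAA lay at the start site itself, while the FANCA match GCGGCAAA lay well upstream. FANCC, which differed 1.23-fold between the doses, held 2 E2F matches and the CHR in the window shown and neither in its other window. Whether a match bears on the differences between the doses was not tested. The GC content of the windows ran from 48.0% in FANCM to 78.7% in the other FANCC window, with a median of 62.3% over promoters of coding genes.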

How the data were processed

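RNA of HepG2 cells was hybridised to 1-colour Agilent arrays, 1 array per condition on 1 slide. The authors deposited the Feature Extraction (version 10.7.3.1) output of each array, per the file headers with intensity per spot after background subtraction and detrending, and a table of the series whose intensity was equal to it for all 44495 spots of each array. No normalization between arrays is given in the sources used here.

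From the deposited intensity, log2 values were averaged over the spots of a probe without outlier spots, and each array's 75th percentile over 34127 probes was subtracted. A gene was taken by its brightest probe and needed a signal well above background, by the scanner software's call, in the brighter condition. The lowest such signal was 19.5, 22.7 and 21.6 in the control, low-dose and high-dose arrays. Between 19836 and 20150 probes per array passed, and no spot was saturated. Spot SDs came from the 50 repeated probes nearest in signal, out of 999 spotted 10 times. The number of arrays limits the precision.

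The members and lists were chosen with earlier results of these data known. All 10 members were named, as were, of the 31 pathway genes, the highest 3 and lowest 3 in each comparison and those tied directly to a member, except for 1 gene that is not reported here. Of the 4 other lists, counts, medians and up to 2 examples were given. Probes keep the positions (hg18) and names that the array's design gives them, and 9 of the 31 pathway genes were matched by older symbols. Exon and UTR annotation on hg18 was not used here. The procedure was run on simulated arrays with noise between spots only, in which bright genes were changed by more than 2-fold. That run does not cover dim genes, changes under 2-fold or the spread between cultures. Alternatives covered scaling, background correction with limma 3.58.1 (R 4.3.3), filters, floors, probes and thresholds. Python 3.11.15 with pandas 2.3.3 was used.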

Additional observations from a re-analysis of the deposited data

How the results depend on the processing

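Of 447 values of the members under 15 alternatives, 342 stayed within the spot error, 105 moved beyond it and 0 called values changed direction, while 13 uncalled values changed sign, of FANCL, FANCA, FANCF and FANCD2 (10 μM over control, -0.40 with the mean of probes). Scaling mattered most for the high dose, since the median of all genes for 10 μM over 100 μM was -0.11 as reported and 0.21 without scaling. The members' median for 100 μM over control was -0.89 without scaling, -0.93 with the array median, -0.84 with quantile normalization and -0.82 with spike-in controls, and that for 10 μM over 100 μM was 1.54 without scaling, 1.49 with the array median and 1.45 with spike-in controls. With normexp background correction, which adds an offset and so shrinks ratios of dim probes, the medians were 0.43 and -0.45 against control and 0.75 between the doses, and 2 pathway genes were over 2-fold higher at 10 μM and 7 lower at 100 μM. With the mean of a gene's probes, taken before any floor, the medians were 0.45, -0.84 and 1.37. The high-dose median was -0.80 with no filter or floor. Between the doses the median was 1.15 with genes well above background on all arrays and 1.02 with a floor at the 5th percentile. At 1.5-fold, 6 members and 10 pathway genes were higher at 10 μM (9.08% of all genes), and 6 members were lower (9.8%) and 1 pathway gene higher (18.6%) at 100 μM. At 3-fold, 0 pathway genes were higher at 10 μM (1.29%), 6 were lower at 100 μM (1.66%), and 3 members were higher at 10 μM than at 100 μM (1.89%). With FANCA by its NM_000135 probe, an alternative chosen after seeing the data, 1 member was over 2-fold higher at 10 μM, and 7 members, with a median of 1.37, were so between the doses. At 2-fold, 3 or 4 members were lower at 100 μM in every setting, the fourth being FANCE without scaling (-1.23), with the array median (-1.27) and with spike-in controls (-1.15), FANCB with quantile normalization (-1.04) and FANCA with the mean of its probes (-1.19), and 4 to 7 were higher at 10 μM than at 100 μM, with FANCB lost with normexp (0.41) and with the floor at the 5th percentile (0.87) and FANCM lost with normexp (0.69). No paired analysis was possible because there was only 1 array of each condition, and the slide could not be used as a block because there was only 1 slide. Dim signals limit the values of FANCB, whose high-dose signal lay below the lowest one well above background, and repeated probes with signals from 20 to 50 had spot SDs of 0.23 to 0.25 against about 0.05 from 300 to 1000.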
